A study of Rattus norvegicus with 12 samples.

Results

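Aminoacyl-tRNA synthetases are the enzymes that join each amino acid to its transfer RNA, and their transcripts were followed here in rat heart muscle cells exposed to corticosteroids with and without a receptor antagonist. The members were chosen by symbol alone: the 1-letter code of an amino acid followed by "ars", with or without 1 or 2, together with Farsa, Farsb and Eprs1. This found 50 probe sets of the 31099 on the array, which stand for 32 genes of the 14217 named there. Of the 32 genes, 19 were taken as cytosolic and 13 (suffix 2) as mitochondrial, and 14 genes had more than 1 probe set. This split rests on the symbol alone, which does not show whether a gene without the suffix also makes a mitochondrial enzyme. Each gene is represented by the probe set with the highest mean. All 32 passed the filter on dim signals. Lars2, Mars2 and Pars2 were not analysed here.

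The cells were primary cultures of cardiomyocytes from the ventricles of 1-day-old Wistar rats, separated from fibroblasts by how they adhere. After 24 h in OPTI-MEM they received a ligand or the ethanol vehicle for 3 h. Where used, RU486 was given beforehand at 10 µM; it blocks the glucocorticoid receptor (GR). The ligands were cortivazol (CVZ), a synthetic glucocorticoid, corticosterone (COR), the main glucocorticoid of the rat, and aldosterone (ALD), the mineralocorticoid of the adrenal gland.

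There were 12 Affymetrix arrays in 8 groups. RU486 alone, CVZ with RU486, COR with RU486 and ALD with RU486 had 1 array each, all in the second of 2 experiments. CVZ, COR, ALD and vehicle had 1 array in each experiment (n = 2). The ligand doses are not in the labels, so differences between ligands may also be differences of dose. Nothing in the labels says that the experiments were separate cell preparations, so the p-values speak for the spread among these arrays alone and may be technical.

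The cytosolic synthetases charge transfer RNAs for the translation of nuclear-encoded messages, and several of them sit together in a large multisynthetase complex. The mitochondrial enzymes, also encoded in the nucleus, serve the translation of the few proteins of the respiratory chain that mitochondria make themselves. In mouse and human cells, lack of amino acids or stress in the endoplasmic reticulum leads to phosphorylation of the initiation factor eIF2, more ATF4 protein, and transcription of many cytosolic synthetase genes through a short promoter element bound by ATF4 and C/EBP partners.

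With RU486, 7 of the 19 cytosolic synthetases rose and none fell, while 0 of the 13 mitochondrial ones passed the test. The 7 were Nars1, Aars1, Cars1, Iars1, Eprs1, Farsb and Yars1, and each was 19.0% to 37.0% higher with RU486 than without it, averaged over vehicle and the 3 ligands. Of all 18625 probe sets tested, 4.02% changed with RU486, 1.85% upwards and 2.16% downwards (limma, Benjamini-Hochberg adjusted p below 0.05). The median change was 0.20 on the log2 scale over the cytosolic synthetases, 0.01 over the mitochondrial ones and 0.01 over all tested probe sets. Signals below are in units of the array's own median probe set, and a change is a log2 difference of signal plus a small pseudocount, with its standard error. Signals of different probe sets are not compared with each other. In cultures measured in bulk, fewer cells of a type and less RNA per cell cannot be told apart.

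**Figure D1:**
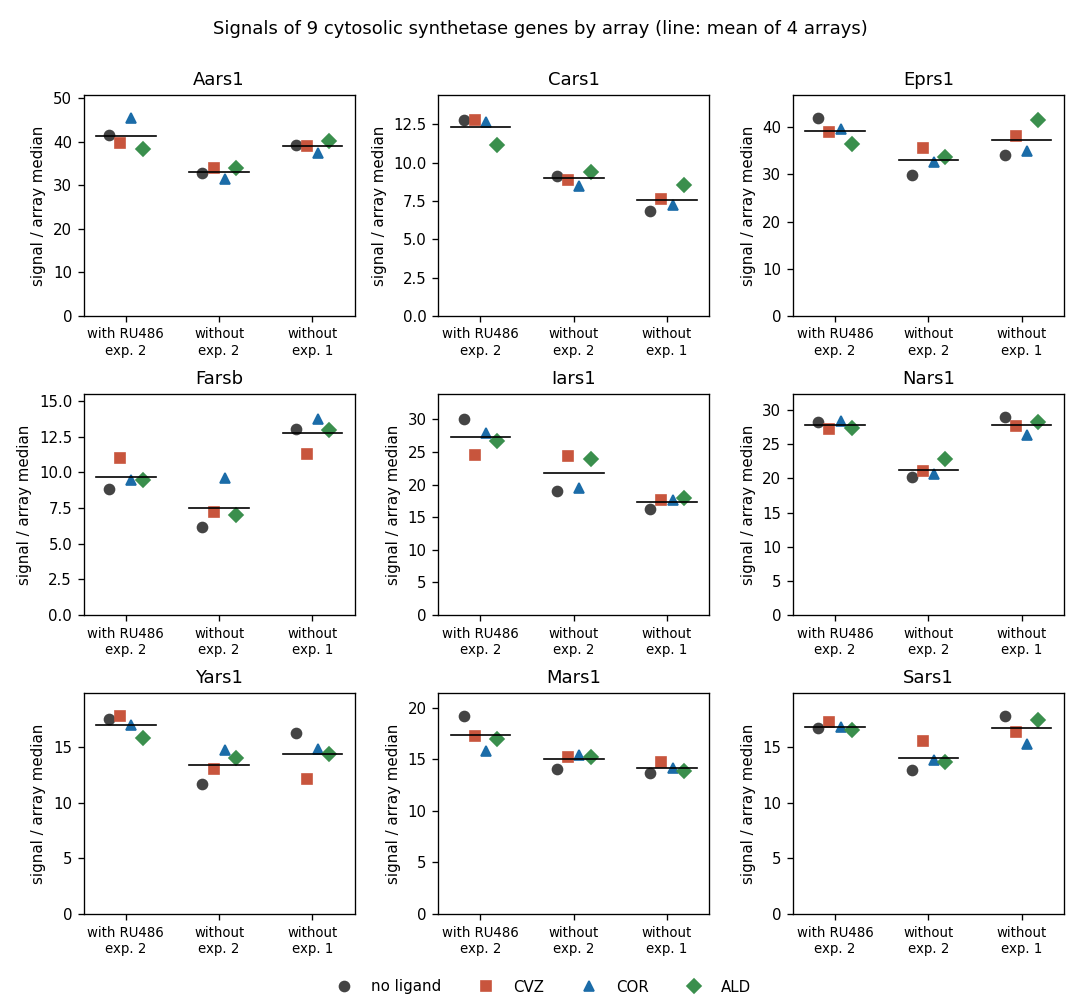
Signal of the 7 synthetases called with RU486, and of Mars1 and Sars1, in units of the array's median on each of the 12 arrays. Columns are arrays with RU486, without it in the second experiment and without it in the first, point shapes are the ligands, and lines are means of 4 arrays. In the second experiment the RU486 arrays of Nars1 lay between 27.2 and 28.4, and those without RU486 between 20.2 and 22.9.

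Nars1 loads asparagine. Its signal was 28.3, 27.2, 28.4 and 27.4 on the arrays with RU486 alone and with CVZ, COR and ALD, against 20.2, 21.1, 20.6 and 22.9 on the vehicle, CVZ, COR and ALD arrays of the same experiment. The groups did not overlap, and the fitted change was 0.39 ± 0.07 (95% interval 0.25 to 0.53, adjusted p = 0.00236, limma). The first experiment had no RU486, and there Nars1 read 27.7, 26.3, 28.3 and 29.0 with CVZ, COR, ALD and vehicle, which spans the range of the RU486 arrays and reaches past it on both sides.

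Aars1 loads alanine. The arrays with RU486 alone, CVZ, COR and ALD read 41.5, 39.7, 45.4 and 38.4, against 32.7, 34.0, 31.4 and 34.0 on the matching arrays without RU486. Every RU486 array was above every other array of the second experiment, with a change of 0.32 ± 0.06 (0.19 to 0.44, adjusted p = 0.00452, limma). The arrays of the first experiment, at 38.9, 37.3, 40.2 and 39.3 with CVZ, COR, ALD and vehicle, overlapped the RU486 arrays.

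Cars1 loads cysteine and had the largest fitted change of the 32 in this comparison. Its signal was 12.8, 12.8, 12.7 and 11.2 with RU486 alone, CVZ, COR and ALD, against 9.16, 8.88, 8.51 and 9.42 without RU486. The change was 0.45 ± 0.09 (0.27 to 0.64, adjusted p = 0.00556, limma). Here the first experiment read 7.602, 7.21, 8.52 and 6.81 with CVZ, COR, ALD and vehicle, so the RU486 arrays were above all 8 arrays without it. Cars1 is covered by 4 probe sets, and its other 3 gave 0.09, 0.24 and 0.28, none of them past the threshold.

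Iars1 loads isoleucine. The RU486 arrays read 30.1, 24.5, 27.9 and 26.7 for RU486 alone and with CVZ, COR and ALD, against 19.0, 24.4, 19.5 and 23.9 without it. The groups were separate, but only just in the cells given CVZ. The change was 0.34 ± 0.07 (0.18 to 0.49, adjusted p = 0.0153, limma), and the first experiment lay lower, at 17.6, 17.7, 18.0 and 16.2 with CVZ, COR, ALD and vehicle.

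Eprs1 encodes a bifunctional enzyme that loads glutamate and proline. It had a signal of 42.0, 38.9, 39.6 and 36.4 with RU486 alone, CVZ, COR and ALD, against 29.9, 35.6, 32.7 and 33.6 without RU486, again with no overlap. The change was 0.25 ± 0.06 (0.12 to 0.38, adjusted p = 0.0316, limma). The first experiment, at 38.2, 35.1, 41.5 and 34.1 with CVZ, COR, ALD and vehicle, reached across both ranges. Of its other probe sets, 1 gave 0.26 with an adjusted p of 0.0794 and 1 gave -0.05, and the dimmest was not tested.

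Yars1, which loads tyrosine, read 17.5, 17.7, 16.9 and 15.8 with RU486 alone, CVZ, COR and ALD, against 11.7, 13.0, 14.7 and 14.0 without it. These did not overlap, and the change was 0.35 ± 0.09 (0.16 to 0.54, adjusted p = 0.0409, limma). The first experiment, at 12.1, 14.8, 14.4 and 16.2 with CVZ, COR, ALD and vehicle, overlapped both.

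Farsb is the beta subunit of the cytosolic phenylalanine enzyme and the only 1 of the 7 whose groups overlapped. The RU486 arrays read 8.83, 10.97, 9.49 and 9.49 for RU486 alone, CVZ, COR and ALD, against 6.15, 7.19, 9.63 and 7.01 without RU486. The COR array without RU486 was above 3 of the RU486 arrays. The change was 0.38 ± 0.10 (0.17 to 0.59, adjusted p = 0.0386, limma), and all 4 arrays of the first experiment were higher still, at 11.3, 13.7, 13 and 13.0 with CVZ, COR, ALD and vehicle. Farsa, the alpha subunit of the same enzyme, gave -0.11 ± 0.14 (-0.41 to 0.20).

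These 7 calls rest on the error that limma estimates from all probe sets as a function of signal. With the second experiment alone, with an error that does not follow the signal, or without the experiment as a block, 0 of the 32 synthetases were called, and 10, 8 and 4 had an unadjusted p below 0.05, against 10 in the reported fit. The estimates were the same in the first 2 of these settings, since the RU486 contrast is a difference between arrays of the second experiment. The share of all tested probe sets with an unadjusted p below 0.05 was not computed. Counts of synthetases at that level, here and below, therefore have no background beside them.

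Among the other cytosolic synthetases, Sars1 (serine), Gars1 (glycine) and Mars1 (methionine) came closest to the threshold. Sars1 averaged 16.8 ± 0.29 on the 4 RU486 arrays and 14.0 ± 1.08 on the 4 others of the second experiment (SD), a change of 0.27 ± 0.08 (adjusted p = 0.0832, limma). Mars1 averaged 17.3 ± 1.40 with RU486 and 15.0 ± 0.60 without it, a change of 0.20 ± 0.07 (adjusted p = 0.142, limma). The groups did not overlap for either gene. Gars1, whose human counterpart also makes the mitochondrial glycine enzyme, averaged 24.8 ± 2.33 with RU486 and 21.5 ± 0.62 without it, a change of 0.20 ± 0.06 (adjusted p = 0.106, limma), and its ranges overlapped.

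Lars1 (leucine) gave 0.14 ± 0.07 and Rars1 (arginine) gave -0.13 ± 0.07, with adjusted p of 0.390 and 0.405 (limma). Vars1, Hars1, Wars1, Kars1, Tars1 and Qars1, which load valine, histidine, tryptophan, lysine, threonine and glutamine, lay between 0.02 and 0.10. Rars1 and Farsa were the only cytosolic members with a negative estimate, so 17 of 19 were positive, against 52.8% of all tested probe sets.

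All 4 RU486 arrays were above all 4 other arrays of the second experiment for 8 of the 19 cytosolic synthetases: Aars1, Cars1, Eprs1, Iars1, Mars1, Nars1, Sars1 and Yars1. Complete separation of 4 against 4 arrays fixes the exact two-sided permutation test at p = 0.0286, the smallest it allows. For these 8 genes that p therefore adds nothing to the count, and the permutation ignored the matching of the 4 backgrounds. The same complete separation upwards held for 5.41% of all tested probe sets. It held for 0 of the 13 mitochondrial synthetases, and no synthetase of either kind was lower on all 4, as 3.60% of all tested probe sets were.

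The mitochondrial synthetases ranged from -0.25 (Aars2) to 0.16 (Nars2), with 7 of 13 positive, against 52.8% of all tested probe sets. None had an unadjusted p below 0.05 (limma, smallest adjusted p = 0.578). Their signals were near or below the array median for several genes, and their median standard error was 0.15, against 0.08 for the cytosolic ones. The 95% intervals of the 13 reached from -0.76 to 0.79, and those of Nars2, Ears2, Wars2 and Sars2 included a rise as large as that of Nars1.

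Aars2, the mitochondrial alanine enzyme, read 1.09, 1.58, 1.58 and 1.41 with RU486 alone, CVZ, COR and ALD, against 1.31, 1.88, 1.56 and 2.06 without RU486. Cars2, for cysteine, read 1.94, 1.29, 1.29 and 1.53 with RU486, against 1.43, 1.66, 1.80 and 2.32 without it. For both genes the ranges overlapped and the 4 pairs of arrays went in both directions. Wars2, for tryptophan, read 2.19, 1.60, 1.47 and 1.27 with RU486, against 1.24, 1.49, 1.68 and 1.51 without it. Sars2, for serine, read 1.32, 1.47, 2.58 and 1.82 with RU486, against 2.05, 1.73, 1.49 and 1.46 without it. These too overlapped, with the highest array of the second experiment among those with RU486 for each gene. In the first experiment, with CVZ, COR, ALD and vehicle, Aars2 read 0.621, 1.31, 0.963 and 1.31 and Cars2 read 1.52, 1.49, 1.05 and 1.45. There Wars2 read 1.199, 2.10, 1.74 and 2.53 and Sars2 read 1.57, 1.44, 1.51 and 1.48. Of the 4 genes, Sars2 varied least in that experiment, with a range of all 4 arrays inside that of the RU486 arrays.

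Tars2 and Hars2, for threonine and histidine, gave 0.15 ± 0.11 and 0.11 ± 0.10. Rars2 and Fars2 gave -0.08 ± 0.11 and -0.12 ± 0.13, and Iars2, Yars2 and Vars2 lay within 0.02 of no change. Nars2 (0.16 ± 0.30) and Ears2 (0.07 ± 0.27) were among the dimmest, with averages of 0.897 and 0.951 on the RU486 arrays and 0.804 and 0.897 on the others of the second experiment.

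**Figure D2:**
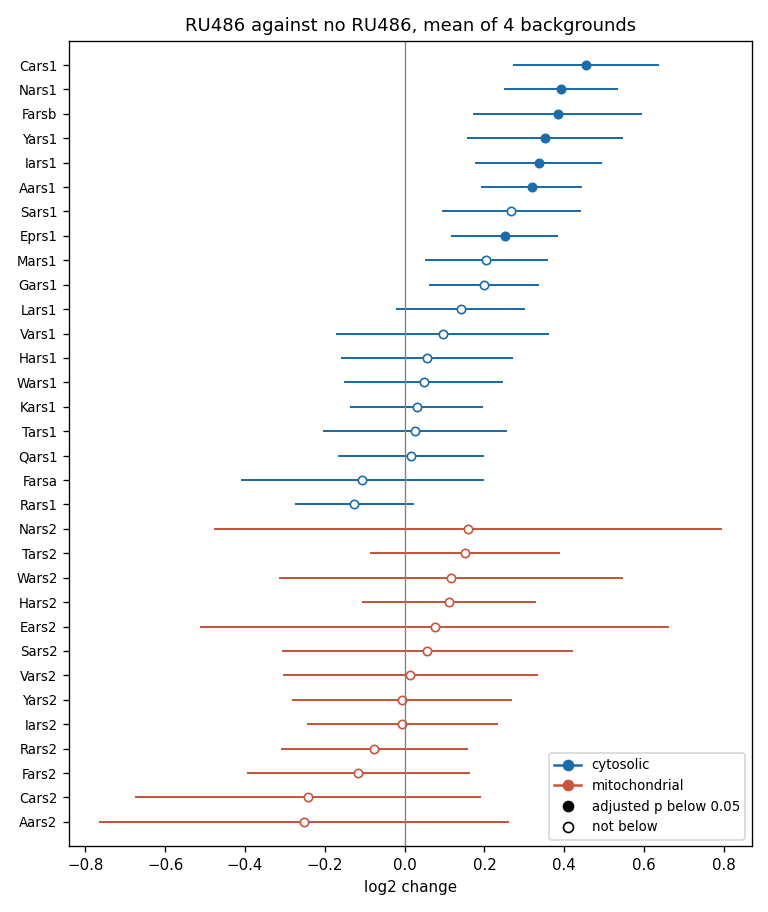
Change with RU486 over vehicle and the 3 ligands for each synthetase (log2, with 95% intervals), cytosolic and mitochondrial genes in different colours, with those called filled. The 7 called genes lie between 0.25 and 0.45, and the mitochondrial genes between -0.25 and 0.16.

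For 14 pairs a cytosolic synthetase could be set against the mitochondrial one for the same amino acid by the ratio of their signals on each array, which a common scaling of the array largely cancels. Farsa and Farsb were both set against Fars2. The change with RU486 was larger for the cytosolic gene in 10 of the 14. The difference of the changes was 0.70 for Cars1 and Cars2, 0.57 for Aars1 and Aars2, 0.36 for Yars1 and Yars2, and 0.34 for Iars1 and Iars2. In these 4 pairs the ratios did not overlap between arrays with and without RU486 (exact two-sided permutation test, p = 0.0286, adjusted over the 14 pairs to 0.10). This misses the threshold, and the smallest p the design allows cannot pass it with 4 such pairs among 14. The cytosolic genes of these 4 pairs were already called and separate by themselves, so the ratios add little to those calls. The share of other gene pairs was not computed, so the counts of 10 and 4 have no background beside them. The difference was 0.50 for Farsb and Fars2 (exact p = 0.0571) and 0.23 for Nars1 and Nars2 (exact p = 0.143). It was -0.13 for the threonine enzymes Tars1 and Tars2 (exact p = 0.257) and 0.01 for Farsa and Fars2 (exact p = 0.943).

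The rise was looked at within each of the 4 backgrounds, where 1 array stands against 1, and these differences are given as values without a test. The median difference over the cytosolic synthetases was 0.34 for RU486 against vehicle, 0.13 for CVZ with RU486 against CVZ, 0.24 for COR with RU486 against COR and 0.16 for ALD with RU486 against ALD. Over the mitochondrial synthetases it was 0.09, -0.02, 0.10 and -0.14, and over all tested probe sets 0.07, -0.02, 0.03 and -0.04, in the same order. All 4 differences were positive for Aars1, Cars1, Eprs1, Gars1, Iars1, Lars1, Mars1, Nars1, Sars1, Yars1 and the mitochondrial Tars2. The share of all tested probe sets with 4 positive differences was not computed. In the single backgrounds 60.4%, 47.5%, 55.0% and 44.0% of them were positive, in the same order.

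**Figure D3:**
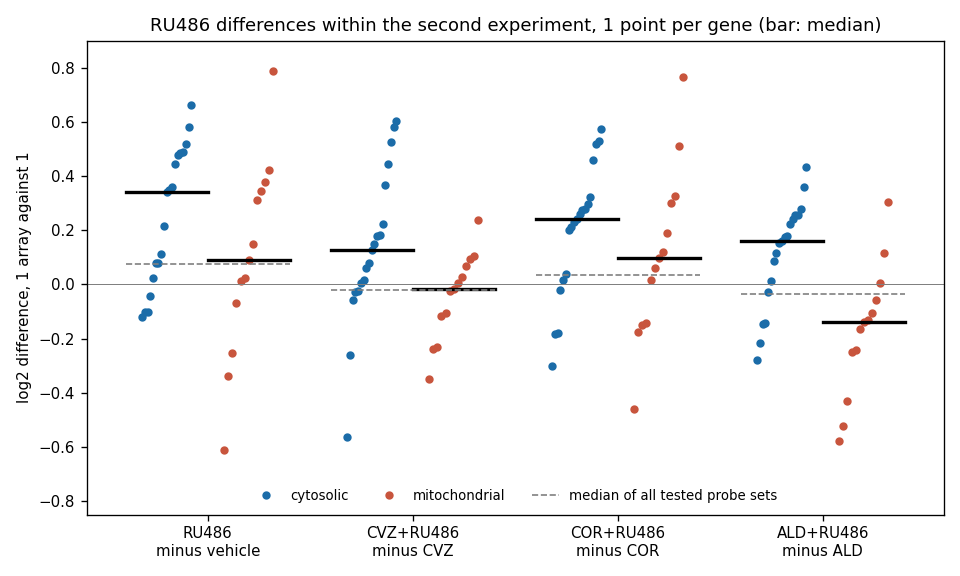
Difference of log2 signal between the array with RU486 and the matching array without it in the second experiment, for each of 4 backgrounds, with 1 point per synthetase and the medians of the cytosolic genes, the mitochondrial genes and all tested probe sets. The cytosolic median is 0.34, 0.13, 0.24 and 0.16 in vehicle, CVZ, COR and ALD.

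The genes differed in where the difference was large. Iars1 gave 0.66 in vehicle and 0.52 in COR, but 0.16 in ALD and less than 0.01 in CVZ. Nars1 was more even, at 0.48 in vehicle, 0.37 in CVZ, 0.46 in COR and 0.26 in ALD. Cars1 gave 0.48, 0.53, 0.57 and 0.24 in vehicle, CVZ, COR and ALD. Farsb gave 0.52, 0.60, -0.02 and 0.43 in the same order.

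For RU486 alone against vehicle, fitted from 1 array against 2, 0 of the 32 synthetases passed (limma), as 0.129% of all probe sets did, and 8 cytosolic and 0 mitochondrial ones had an unadjusted p below 0.05. The nearest were Iars1 at 0.62 ± 0.13 (adjusted p = 0.125) and Eprs1 at 0.48 ± 0.11 (adjusted p = 0.171). Cars1 followed at 0.56 ± 0.15 and Nars1 at 0.42 ± 0.12. For the 3 ligands with RU486 against the same ligands without it, 3 synthetases rose, with 4.87% of all probe sets changed and 1.88% higher. They were Nars1 at 0.38 ± 0.07 (adjusted p = 0.00472), Aars1 at 0.31 ± 0.06 (adjusted p = 0.0082) and Cars1 at 0.42 ± 0.10 (adjusted p = 0.016), all cytosolic, and 9 cytosolic and 0 mitochondrial genes had an unadjusted p below 0.05.

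Whether RU486 acted differently in ligand-treated and vehicle-treated cells was tested as an interaction. No synthetase passed (0 of 32, limma, against 1.09% of all probe sets), with 2 cytosolic and 0 mitochondrial genes at an unadjusted p below 0.05. These 2 were Iars1, at -0.38 (-0.69 to -0.07, adjusted p = 0.427), and Eprs1, at -0.31 (-0.57 to -0.04, adjusted p = 0.473). For Nars1, Aars1, Yars1 and Farsb the estimate was between -0.06 and 0.02, with intervals that still allow differences in both directions. With RU486 present, the ligands against RU486 alone gave 0 calls among the synthetases (limma), as among all probe sets, and 0 with an unadjusted p below 0.05.

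The ligands themselves gave no call among the synthetases. With CVZ 0 of 32 passed (limma), while 7.96% of all tested probe sets did, and 2 cytosolic and 1 mitochondrial gene had an unadjusted p below 0.05. With COR 0 of 32 passed, against 3.39% of all probe sets, with 2 cytosolic genes at an unadjusted p below 0.05. With ALD 0 of 32 passed, against 0.950%, with 3 cytosolic genes at that level. The ligands were active in the same cells: Fkbp5, a GR target that encodes a chaperone partner of the receptor, rose by 4.54 with CVZ, 3.87 with COR and 2.69 with ALD on the log2 scale, and fell by 1.76 with RU486 over the 4 backgrounds (limma).

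Among genes with an unadjusted p below 0.05, estimates went both ways. When nothing changes, a share of 0.05 of tests reaches that level, so these genes are listed as values only. Eprs1 gave 0.21 with CVZ (0.02 to 0.40, adjusted p = 0.201) and 0.23 with ALD (0.04 to 0.41, adjusted p = 0.400). Iars1 gave 0.24 with CVZ (0.02 to 0.46, adjusted p = 0.229) and 0.24 with ALD (0.02 to 0.46, adjusted p = 0.497). Farsb gave 0.36 with COR (0.06 to 0.65, adjusted p = 0.242). The lower estimates were those of Vars1, for valine, with ALD, at -0.38 (-0.75 to -0.01, adjusted p = 0.538), and Tars1, for threonine, with COR, at -0.32 (-0.64 to -0.0003, adjusted p = 0.381). Of the mitochondrial genes, Rars2 gave -0.38 with CVZ (-0.71 to -0.06, adjusted p = 0.177). None of these passed the threshold.

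The 95% intervals bound what the ligands could have done. Over the 19 cytosolic genes they reached from -0.72 to 0.46 with CVZ, from -0.64 to 0.65 with COR and from -0.75 to 0.46 with ALD. Over the 13 mitochondrial genes they were wider, from -1.21 to 1.23, from -1.35 to 1.08 and from -0.93 to 0.92. The median change of the cytosolic genes was 0.04 with CVZ, -0.01 with COR and 0.03 with ALD, and that of all tested probe sets was 0.01, 0.01 and 0.02.

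The mitochondrial medians were -0.17 with CVZ, -0.07 with COR and 0.01 with ALD, but the experiments pulled apart. With CVZ the median was -0.41 in the first experiment and 0.13 in the second. With COR it was -0.08 and 0.10, and with ALD -0.21 and 0.20. The cytosolic medians also changed sign, at -0.02 and 0.11 with CVZ, -0.04 and 0.04 with COR and -0.03 and 0.11 with ALD in the first and the second experiment. So did those of all tested probe sets, at -0.03 and 0.05, -0.02 and 0.04, and -0.04 and 0.08 in the same order.

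**Figure D4:**
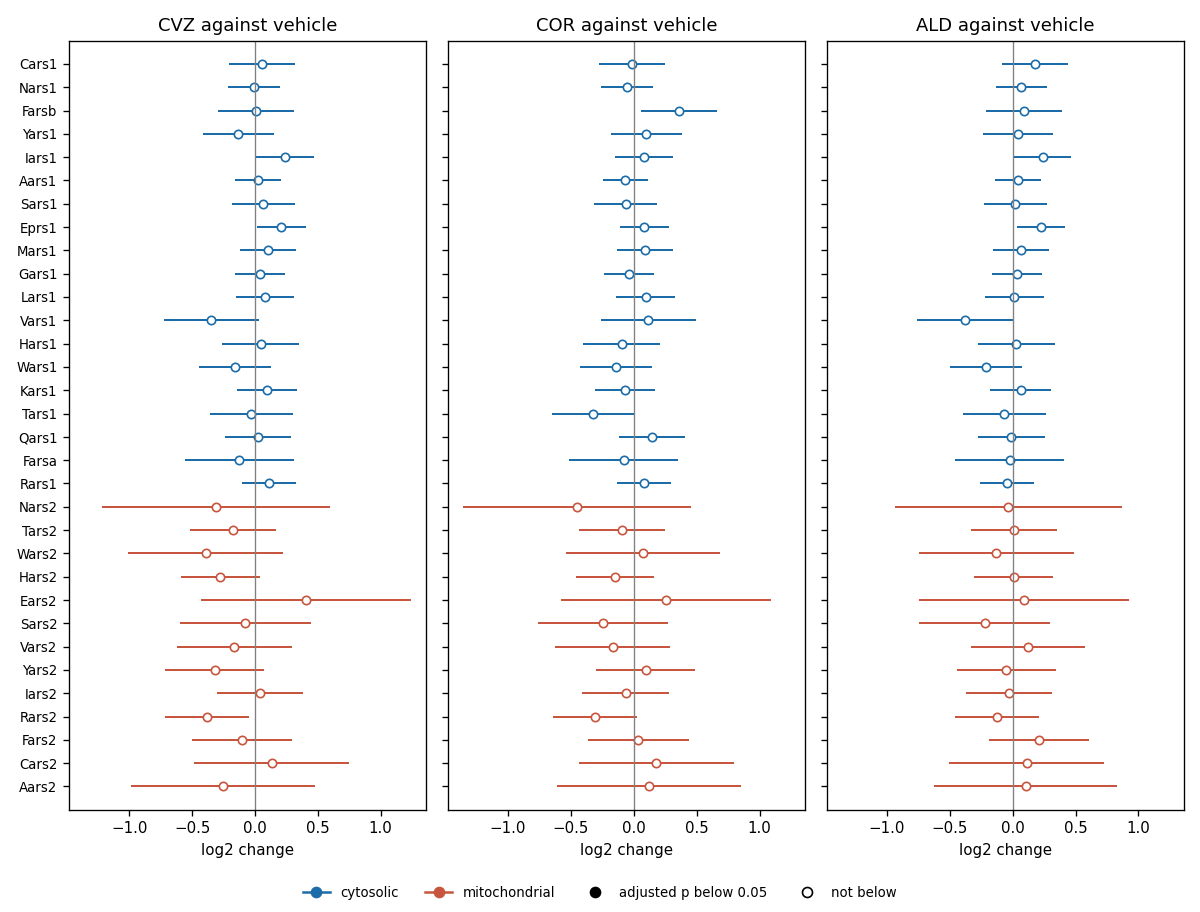
Change with CVZ, COR and ALD against vehicle for each synthetase (log2, with 95% intervals), with cytosolic and mitochondrial genes in different colours. No synthetase passed the threshold with any of the 3 ligands, and the widest intervals belong to the dim mitochondrial genes.

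Set against each other at doses that the labels do not give, the ligands did not differ detectably in any synthetase. CVZ against COR gave 0 of 32 calls (limma, 0.966% of all probe sets), with 2 cytosolic and 1 mitochondrial gene at an unadjusted p below 0.05: Vars1 at -0.46 (-0.83 to -0.09, adjusted p = 0.354), Farsb at -0.35 (-0.64 to -0.05, adjusted p = 0.388) and Yars2 at -0.42 (-0.80 to -0.03, adjusted p = 0.475). CVZ against ALD gave 0 of 32, with 4.25% of all probe sets called and 0 synthetases at an unadjusted p below 0.05. COR against ALD gave 0 of 32, with 0.295% called, and only Vars1 had an unadjusted p below 0.05, at 0.49 (0.12 to 0.87, adjusted p = 0.542). Vars1 was dim, with 2.26, 3.21, 1.95 and 2.67 for CVZ, COR, ALD and vehicle in the first experiment, and 3.11, 4.20, 3.43 and 4.29 in the second.

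The RU486 response was then read across the families and partners of the enzymes, as counts and medians beside the 1.85% of all probe sets that rose. Synthetases fall into 2 structural classes that differ in the fold of the catalytic domain. Of class I, 4 of 17 measured genes rose (Cars1, Eprs1, Iars1 and Yars1), with a median of 0.07, and of class II 3 of 15 (Aars1, Farsb and Nars1), with a median of 0.11. Eprs1 was counted in class I alone, although the part of it that loads proline belongs to class II. Of the multisynthetase complex, 2 of 7 measured synthetases rose (Eprs1 and Iars1), with a median of 0.14. The other 5 were Mars1, Lars1, Kars1, Qars1 and Rars1, from 0.20 down to -0.13.

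Of 16 partner genes, among them scaffolds of the complex, elongation factors and transfer RNA export, 1 rose and 0 fell, with a median of -0.05. This was Xpot, the nuclear exporter of transfer RNA, at 0.47 ± 0.10 (adjusted p = 0.0105, limma). Its signal was 7.16, 6.69, 7.14 and 7.18 with RU486 alone, CVZ, COR and ALD, against 5.93, 4.39, 5.29 and 4.82 without it. The groups did not overlap. Of the elongation factor subunits, Eef1a1, which carries charged transfer RNA to the ribosome, gave 0.06 ± 0.05, Eef1g gave -0.08 ± 0.06, Eef1b2 gave -0.12 ± 0.06 and Eef1d gave -0.18 ± 0.06, none past the threshold.

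Of the 13 measured cytosolic synthetases that work in mouse and human cells has linked to ATF4, 6 rose, with a median of 0.25. The estimates of all 13 were positive, against 52.8% of all tested probe sets. Of the other 6 cytosolic synthetases 1 rose, Farsb, with a median of 0.02. Both lists were drawn up with earlier results of these data known, so the split is a description. Of 28 other measured genes linked to ATF4, 15 rose and 0 fell, with a median of 0.45.

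Atf4 itself read 64.4, 59.1, 60.4 and 54.1 with RU486 alone, CVZ, COR and ALD, against 42.2, 36.8, 36.7 and 39.3 without RU486, a change of 0.62 ± 0.06 (adjusted p = 1.76e-05, limma). Ddit3, which encodes the stress factor CHOP, read 16.7, 16.6, 16.7 and 14.9 with RU486, against 5.95, 4.98, 6.56 and 6.28 without it, a change of 1.44 ± 0.09 (adjusted p = 3.53e-07). The groups were far apart for both genes. Asns, which makes the asparagine that Nars1 loads, read 9.61, 10.2, 8.31 and 9.18 with RU486, against 7.34, 7.26, 5.46 and 6.33 without it, a change of 0.50 ± 0.09 (adjusted p = 0.0028). The first experiment was higher for Asns, with 11.3, 9.47, 11.1 and 11.5 for CVZ, COR, ALD and vehicle.

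The other 12 that rose included the stress genes Chac1 (1.35), Trib3 (1.33), Sesn2 (0.87) and Ppp1r15a (0.58), and the amino acid transporter genes Slc3a2 (0.85) and Slc7a1 (0.63). They also included Mthfd2 (0.61), Psat1 (0.44) and Aldh18a1 (0.43), enzymes of one-carbon metabolism, serine synthesis and proline synthesis, with Xpot, Cebpg (0.38) and Vldlr (0.31). Cebpb, a partner factor that rose with CVZ, gave -0.42 ± 0.12 with RU486 (adjusted p = 0.0597). Of the genes upstream of ATF4, 1 of 13 rose: Eif2s2, the beta subunit of eIF2, at 0.26 ± 0.06 (adjusted p = 0.0289, limma). The 13 estimates ran from -0.26 to 0.45, with a median of 0.03, so that of Eif2s2 was not the largest. Eif2s1 and Eif2s3, the alpha and gamma subunits, gave 0.03 ± 0.07 and 0.08 ± 0.08.

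With CVZ, 5 of the 28 other ATF4-linked genes rose and 0 fell, with a median of 0.05, while 4.77% of all tested probe sets rose: Cebpb (2.24), Cth (1.54), Slc7a5 (1.19), Slc3a2 (0.88) and Eif4ebp1 (0.51). Cth was dim, below the array median on the vehicle arrays of each experiment, so its change rests on low signals. With CVZ 0 of the 13 ATF4-linked cytosolic synthetases were called, with a median of 0.04. Slc3a2 was called in both comparisons, which share the CVZ and vehicle arrays.

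**Figure D5:**
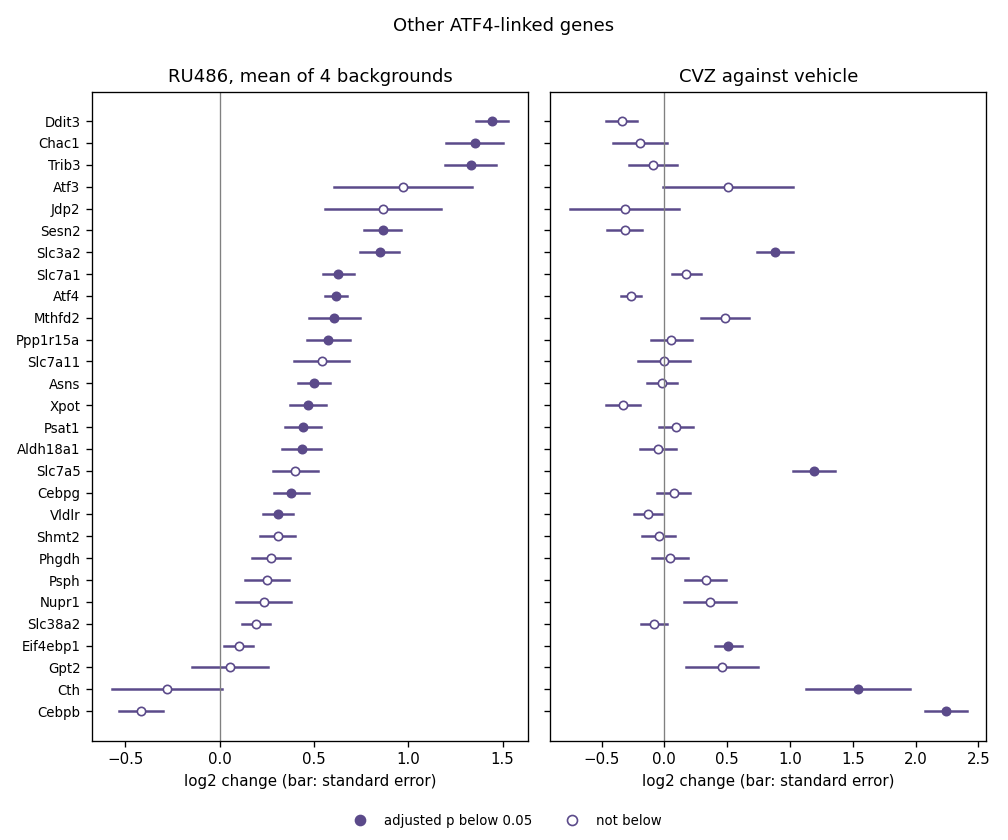
Change of the other ATF4-linked genes with RU486 over 4 backgrounds and with CVZ against vehicle (log2, bars are the standard error), with called genes filled. Ddit3, Chac1 and Trib3 lead with RU486 at 1.44, 1.35 and 1.33, and Cebpb, Cth and Slc7a5 lead with CVZ at 2.24, 1.54 and 1.19. Cth was dim, below the array median in vehicle.

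Because ATF4 and C/EBP partners are known to bind a shared element, the letters TGATGNAA (TTNCATCA on the other strand) were searched in the promoters that RefSeq annotates on the assembly GRCr8. Each window ran from 250 bases before to 50 after the start. For a synthetase with several promoters only the first listed was searched. Promoters were found for 30 of the 32 synthetases, not for Gars1 or Rars1. The letters stood in 7 of 30 synthetase promoters, against 1332 of all 33469 (3.98%). They stood in 7 of 17 cytosolic and 0 of 13 mitochondrial promoters. Of the genes called with RU486, 5 of 7 held them (Aars1, Cars1, Iars1, Nars1 and Yars1), and Eprs1 and Farsb did not. Of the 10 other cytosolic promoters 2 held them, Mars1 and Tars1. Tars1 gave 0.03 ± 0.11 with RU486. Of the promoters of the other ATF4-linked genes, 6 of 26 held the letters. A match is a description of these letters and not a binding site. The windows around the 8 matches are shown because 5 of these 7 genes are among those that rose, and capitals mark the match, written in the direction of the gene:
Aars1, chr19:55908350-55908397, plus strand: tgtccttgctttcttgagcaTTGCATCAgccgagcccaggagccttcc
Aars1, chr19:55908471-55908518, plus strand: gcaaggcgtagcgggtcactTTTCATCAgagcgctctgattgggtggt
Cars1, chr1:208225325-208225372, minus strand: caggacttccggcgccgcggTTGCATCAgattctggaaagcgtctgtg
Iars1, chr17:15193649-15193696, minus strand: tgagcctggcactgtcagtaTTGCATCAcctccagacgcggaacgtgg
Nars1, chr18:60275769-60275816, minus strand: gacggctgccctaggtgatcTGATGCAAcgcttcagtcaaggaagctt
Yars1, chr5:146820181-146820212, plus strand: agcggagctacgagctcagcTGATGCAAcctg
Mars1, chr7:65023743-65023790, minus strand: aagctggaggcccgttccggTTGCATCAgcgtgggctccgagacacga
Tars1, chr2:62114802-62114849, minus strand: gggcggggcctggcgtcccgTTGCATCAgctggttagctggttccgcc

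In 7 of the 8 windows the match read TTGCATCA or its reverse complement TGATGCAA, and the second match of Aars1 read TTTCATCA. The Aars1 gene itself lies at chr19:55906694-55930499, so the promoter searched for it, chr19:55908232-55908531, was inside the gene and not at its first base. Farsb and Eprs1, without a match, lie at chr9:87336321-87395546 and chr13:99431955-99503510 on the same assembly.

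Some measures differed between arrays with and without RU486. The median signal before the division was inferred from the spacing of the deposited values. It came to 35.4 to 37.7 on the RU486 arrays and 22.4 to 33.7 on the others of the second experiment. Those others already differed among themselves, at 23.8, 22.4, 28.7 and 33.7 with vehicle, CVZ, COR and ALD. The summed signal of 9 cardiomyocyte markers was 1713 to 1931 with RU486 and 1918 to 2206 without it in the second experiment, and 4 of the 9 fell (Myh6, Tnni3, Myl2 and Atp2a2, by 0.20, 0.21, 0.30 and 0.27). Summed fibroblast markers were 173 to 187 with RU486 and 191 to 198 without it, with 0 of 7 called. Smooth muscle markers were 90.1 to 98.9 with RU486 and 97.6 to 112.03 without it, with Tagln lower. Most of each sum was Des, at 77.0, 75.2, 72.0 and 75.2 with RU486 alone, CVZ, COR and ALD. Without RU486 Des read 71.7, 82.0, 83.9 and 83.8 on the matching arrays. Endothelial markers were 6.57 to 9.58 with RU486 and 6.49 to 18.4 without it, with Kdr lower. Kdr also rose with the ligands, from 2.45 in vehicle to 12.5, 13.0 and 8.86 with CVZ, COR and ALD in the second experiment. With RU486 Kdr read 2.30, 4.10, 5.77 and 5.00 in the same order. Macrophage markers were 11.3 to 15.7 with RU486 and 13.8 to 16.2 without it, with 0 of 5 called. No marker was at 0 on all arrays, and the part of these shifts in the synthetase result was not tested.

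The experiments themselves differed in many cytosolic synthetases. Among arrays without RU486, the 4 of the second experiment were all below the 4 of the first for 9 of 19 cytosolic synthetases and all above for 1, Iars1, while 24.2% of all tested probe sets were below and 7.55% above in the same way. The 9 were Aars1, Farsb, Gars1, Hars1, Kars1, Lars1, Nars1, Rars1 and Wars1. None of the 13 mitochondrial synthetases was separate in either direction. The mean log2 difference of the second minus the first experiment was -0.78 for Farsb, -0.72 for Hars1, -0.63 for Rars1, -0.43 for Kars1 and -0.39 for Nars1, and 0.31 for Iars1. For Nars1, Aars1 and Farsb this difference runs opposite to the rise with RU486. It does so also for Eprs1 (-0.17) and Yars1 (-0.10), where the arrays of the experiments overlapped. For Iars1 and Cars1 (0.26) it runs the same way as the rise. Summed fibroblast markers were 191 to 198 on the arrays without RU486 of the second experiment and 358 to 438 on those of the first. The part of this in the synthetase differences was not tested.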

How the data were processed

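The deposited values are signal intensity on a linear scale, 1 value per probe set and array, made with MAS5 per the submitters' processing notes; every array had a median of 1, so the values had been divided by the array's median before they were deposited. Arrays have no read depth, and their number limits the precision. Before taking log2, 0.0696 (the 10th percentile of the whole table) was added as a pseudocount. After 57 control probe sets were set aside, the 18625 probe sets above the 40th percentile of mean log2 value (a geometric mean of 0.63) were tested. These hold 10082 named genes. Of the 31099 probe sets 20832 carried 1 symbol, 436 several and 9831 none, and 20764 were matched to RefSeq by gene ID.

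The 8 groups, with the experiment as a block, were fitted in R 4.3.3 by limma 3.58.1 (functions lmFit and eBayes, trend on). The block rests on the labels, which number the experiments, and deviations within an experiment correlated at 0.512 to 0.567 between groups; replicates correlated at 0.946 to 0.950 with 0 identical values. Only 3 residual degrees of freedom were left (15.2 in all after adding the prior), and each single RU486 array is assumed to vary as the replicated groups do. There were 11 comparisons, each with Benjamini-Hochberg adjustment over all tested probe sets and a threshold of 0.05. Intervals are 95%. Values on every array are given for synthetases called in any comparison and for those among the 6 with the largest fitted changes; of other lists, called genes and up to 4 of highest mean could be named. Asns, Atf4, Ddit3 and Xpot are shown by array. Those 4 were picked for display after their values were seen. The members and lists were chosen with earlier results of these data known. Alternatives changed the block, trend, scaling, pseudocount, filter, probe set rule and arrays used.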

Additional observations from a re-analysis of the deposited data

How the results depend on the processing

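The count of synthetases called with RU486 over the 4 backgrounds, 7 as reported, was 0 with no replicate block, 0 without the mean-variance trend and 0 with the second experiment only. It was 4 without a filter and 4 with the mean of a gene's probe sets (Aars1, Gars1, Nars1 and Yars1). Leaving out 1 array in turn it ranged from 3 to 8, with 3 without the second vehicle array, the RU486 array or the COR with RU486 array, and 4 without the second COR array, the second ALD array or the CVZ with RU486 array. For ligand with RU486 against ligand, 3 as reported, the count was 0 with no replicate block, 0 without the trend, 8 after quantile normalization and 5 after trimmed-mean scaling, and ranged from 2 to 4 leaving out 1 array. The counts of the other 9 comparisons, 0 as reported, were 0 in all alternatives run. With no replicate block the RU486 calls over all probe sets fell to 11, against 748, with the second experiment only to 25, without the trend to 4 and without the CVZ with RU486 array to 151. Over 21 alternatives Nars1 was called in 18, Aars1 and Cars1 in 17, Iars1 in 13, Farsb and Yars1 in 10 and Eprs1 in 9, and each was positive in all 21 except Farsb, positive in 20.

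With no replicate block the RU486 change was 0.10 for Aars2 (-0.25 as reported), -0.0050 for Farsb and -0.034 for Wars2. With CVZ the change was -0.089, -0.0032 and -0.030 for Aars1, Cars1 and Farsb after quantile normalization and -0.040, -0.0050 and -0.052 after trimmed-mean scaling, and -0.0062 for Cars1 with the mean of its probe sets. Leaving out 1 array, the RU486 change ranged from -0.11 to 0.31 for Wars2, -0.48 to 0.015 for Aars2, -0.40 to 0.0025 for Cars2 and -0.16 to 0.23 for Sars2. The CVZ change ranged from -0.79 to 0.28 for Aars2, -0.055 to 0.17 for Cars1, -0.089 to 0.078 for Nars1, -0.85 to 0.065 for Wars2, -0.38 to 0.11 for Yars1, -0.12 to 0.39 for Cars2, -0.19 to 0.21 for Farsb, -0.28 to 0.12 for Sars2 and -0.0074 to 0.050 for Aars1. None of these CVZ values passed the threshold. Of all CVZ calls 889 were higher and 594 lower as reported, and 782 and 807 after trimmed-mean scaling. For ligand with RU486 against ligand they were 350 and 557, and 483 and 475 after quantile normalization. The causes were not tested. Over the 4 backgrounds, the largest standard errors of the RU486 change among the synthetases, 0.30 and 0.27, were those of Nars2 and Ears2, which averaged below the array median.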

Other observations

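Second probe sets of the same gene gave further values for the RU486 comparison. For Gars1 the dimmer probe set gave 0.38 ± 0.11 (adjusted p = 0.0804, limma), against 0.20 for the brighter. For Farsb and Iars1 the dimmer probe sets gave 0.45 ± 0.28 and 0.25 ± 0.20. For Lars1 and Hars1 they gave -0.05 ± 0.24 and -0.09 ± 0.11, opposite in sign to the brighter ones. For Mars1, Wars1, Hars2, Tars2 and Wars2 they gave 0.23, 0.05, 0.14, 0.12 and 0.15. None of these passed the threshold, and those of Kars1 and Vars1 were too dim to be tested. Nars1, Aars1 and Yars1 had 1 probe set each.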
